A study of Mus musculus with 4 samples.

Results

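Nlrc5 and 9 genes of the MHC class I antigen presentation pathway were examined in kidneys of pristane-treated mice with and without Zbp1. The 10 genes were Nlrc5, H2-K1, H2-D1, B2m, Tap1, Tap2, Tapbp, Psmb8, Psmb9 and Psmb10, out of 54532 genes listed per library, and each symbol matched 1 Ensembl identifier. The genes were listed by name, and Nlrc5 was selected on its counts in these libraries, which were higher in ZBP1-KO than in WT. The comparison of ZBP1-KO with WT was therefore used in the choice, so for these 10 genes it is given as a description, with no test.

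The series holds 4 whole-kidney libraries, 2 from WT mice and 2 from ZBP1-KO mice, all on a C57BL/6J background. The paper describes the mice of its pristane experiment as female. Every animal, WT included, had been injected intraperitoneally with 500 μL of pristane when 8 weeks old, and the kidneys were collected 8 months later. Pristane is an oil used to bring on a lupus-like disease in mice, and no kidney without pristane was analysed here. The knockout is constitutive, a CRISPR-Cas9 deletion that removes exon 2 through exon 8 of Zbp1, the gene of a cytosolic sensor for nucleic acids in the Z conformation. WT mice were purchased while the knockout line was made by another supplier, so origin and genotype cannot be told apart. The sources used here do not state whether the 2 libraries of a genotype came from separate animals.

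MHC class I molecules display peptides of the cell's own proteins to CD8 T cells. The peptides are cut by the proteasome, whose catalytic subunits are exchanged for the immunoproteasome subunits Psmb8, Psmb9 and Psmb10 under interferon, then pumped into the endoplasmic reticulum by the Tap1-Tap2 transporter and loaded, with tapasin (Tapbp) as a bridge, onto a heavy chain such as H2-K1 or H2-D1 paired with B2m. NLRC5 is a nuclear NLR family protein that acts as a transactivator of these genes through factors bound at class I promoters, and it is itself induced by interferon. In kidney, class I is found on most cell types at low level and is raised in inflammation.

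Total counts ranged from 9878776 to 12921925 per library, and the 10 genes took 12273 to 28090 of them. Mitochondrially encoded genes took 49.5% of the counts in ZBP1-KO 1 and 57.4% to 61.5% in the other libraries. Zbp1 had 94 and 125 counts in WT and 18 and 0 counts in ZBP1-KO, so the direction followed the labels. Markers of kidney tubule, such as Slc34a1 and Lrp2, were detected in every library. Levels are given as CPM (counts scaled by library size after TMM), and levels per length as CPM per kilobase of annotated exons (RPKM).

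Nlrc5 (ENSMUSG00000074151, chr8:94434356-94527272 on GRCm38, plus strand) was described first. It had 122 counts in WT 1, 150 in WT 2, 413 in ZBP1-KO 1 and 256 in ZBP1-KO 2. These corresponded to 9.81 and 12.8 CPM in WT, against 30.5 and 27.6 CPM in ZBP1-KO. Both ZBP1-KO libraries lay above both WT libraries, and the distance between the genotypes was several times the distance within either. The means were 11.3 ± 2.13 CPM in WT, against 29.0 ± 2.03 CPM in the knockout (SD, n = 2 each), and the fitted log2 fold change was 1.36 ± 0.26 (SE). With any 1 library left out it stayed between 1.18 and 1.56. The fitted value stood at the 97.9 percentile of the 14908 genes tested. An antisense gene overlaps 78 bases of its exons and had 0 to 23 counts, and whether counting used the strand is not given in the sources used here. In whole tissue, more cells of a type and more RNA per cell cannot be told apart.

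For the 9 other genes, values were higher in ZBP1-KO on average but closer to those of WT than for Nlrc5. Their log2 fold changes ran from 0.13 for Tap2 to 0.75 for H2-K1, with a median of 0.57, where the median over all genes tested was −0.01. All 10 genes had a log2 fold change above 0, as did 49.4% of all genes tested. For 7 of the 10 both ZBP1-KO libraries lay above both WT libraries, and for the remaining 3, Tap1, Tap2 and Tapbp, the groups overlapped. Over all genes tested, 16.0% lay above in this way and 16.3% below. Since the choice used this comparison, nothing is read from these shares.

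**Figure D1:**
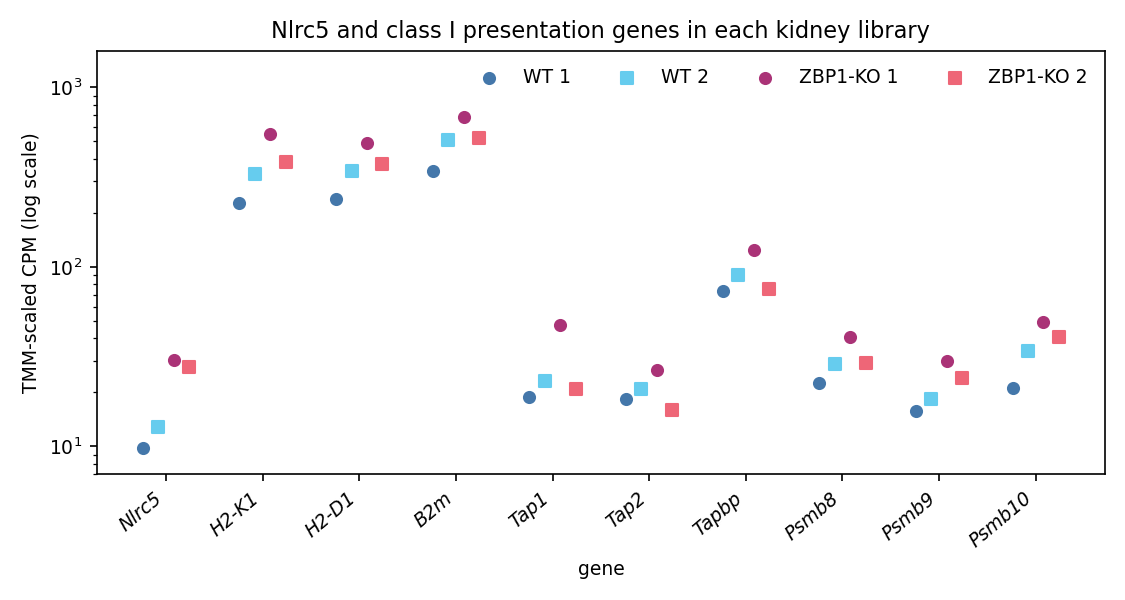
Level of each gene (TMM-scaled CPM, log axis) in the 4 kidney libraries, 1 point per library. Nlrc5 sits at 9.81 and 12.8 CPM in WT and at 30.5 and 27.6 CPM in ZBP1-KO. For Tap1 and Tapbp the library ZBP1-KO 2 sits between the WT libraries, and for Tap2 it sits below both.

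The heavy chains come next. H2-K1 (ENSMUSG00000061232, chr17:33996017-34000347, minus strand), a classical class I heavy chain, measured 228 and 328 CPM in WT, against 551 and 385 CPM in ZBP1-KO. The WT libraries lay further from each other than WT 2 lay from ZBP1-KO 2. Its log2 fold change was 0.75 ± 0.23 (SE), and 0.47 without ZBP1-KO 1. H2-D1 (ENSMUSG00000073411, chr17:35262730-35267499, plus strand), the other classical heavy chain of this strain, measured 238 and 342 CPM in WT, against 489 and 375 CPM in ZBP1-KO. Its log2 fold change was 0.57 ± 0.22 (SE), and without WT 1 it was 0.34. Both genes resemble each other and the H2-Q genes in sequence, and only uniquely mapped read pairs were counted, so their counts are uncertain.

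B2m (ENSMUSG00000060802, chr2:122147686-122153083, plus strand), the invariant light chain that every class I heavy chain needs, measured 341 and 509 CPM in WT, against 683 and 524 CPM in ZBP1-KO. ZBP1-KO 2 exceeded WT 2 only slightly. The log2 fold change was 0.51 ± 0.22 (SE), and it was 0.25 without WT 1. The level per length of B2m was 2.33 and 2.42 times the summed level of H2-K1 and H2-D1 in WT, and 2.11 and 2.21 times in ZBP1-KO. Light and heavy chains thus kept nearly the same proportion in the 4 libraries.

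Promoter sequences were then examined. H2-K1, H2-D1 and B2m had similar profiles across the libraries, but Psmb8 and Psmb10 had profiles of this kind too. A link between promoter and profile was not tested. Windows of 300 bases, from 250 before to 50 after the RefSeq start, were found for 8 of the 10 genes and not for Nlrc5 and Tap2. The bases before the start (GRCm38.p6) are shown 5′ to 3′ for B2m (chr2:122147437-122147686, plus strand), H2-K1 (chr17:34000348-34000597, minus strand), H2-D1 (chr17:35262844-35263093, plus strand) and Tap1 (chr17:34187306-34187555, plus strand). The first 3 show the arrangement these genes share, and Tap1 shows a promoter without it. Capitals mark matches on either strand to the NF-kB pattern (GGGA, any base, T, any 2 bases, CC), the IRF core AANNGAAA, the cyclic AMP response element core TGACG and the CCAAT box CCAAT, where N is any base.
B2m: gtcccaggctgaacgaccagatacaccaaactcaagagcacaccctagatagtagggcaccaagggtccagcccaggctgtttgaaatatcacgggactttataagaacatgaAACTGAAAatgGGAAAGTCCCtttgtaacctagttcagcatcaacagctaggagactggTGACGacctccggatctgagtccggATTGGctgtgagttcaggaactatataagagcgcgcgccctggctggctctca
H2-K1: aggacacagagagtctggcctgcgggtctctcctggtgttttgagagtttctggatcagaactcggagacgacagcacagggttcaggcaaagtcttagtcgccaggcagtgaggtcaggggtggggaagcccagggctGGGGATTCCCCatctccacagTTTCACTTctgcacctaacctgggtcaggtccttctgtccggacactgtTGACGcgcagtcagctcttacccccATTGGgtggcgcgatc
H2-D1: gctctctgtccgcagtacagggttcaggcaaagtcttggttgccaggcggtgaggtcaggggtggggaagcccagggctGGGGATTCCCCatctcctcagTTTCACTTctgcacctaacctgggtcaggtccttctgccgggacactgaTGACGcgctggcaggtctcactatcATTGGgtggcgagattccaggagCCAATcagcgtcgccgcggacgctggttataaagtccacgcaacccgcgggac
Tap1: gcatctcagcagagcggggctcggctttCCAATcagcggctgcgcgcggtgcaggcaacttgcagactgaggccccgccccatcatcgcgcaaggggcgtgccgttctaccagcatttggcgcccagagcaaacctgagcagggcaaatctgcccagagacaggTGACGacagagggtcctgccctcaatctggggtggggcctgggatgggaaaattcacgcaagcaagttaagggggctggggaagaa

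All 4 patterns were found in B2m, H2-K1 and H2-D1. In each of the 3, TGACG was followed by an inverted CCAAT box (ATTGG) whose first base lay 25 bases further on. TGACG began 78 bases before the start in B2m, 41 in H2-K1 and 101 in H2-D1. A further RefSeq start of H2-K1, whose window is not printed, has TGACG 55 bases before it. This pair at this spacing, in either order and on any strand, was found in 0.192% of all 32851 promoter windows, and the spacing was picked after these 3 had been seen. In H2-K1 and H2-D1 the same NF-kB letters and the same IRF core letters lay upstream in the same order. In B2m the IRF core came before the NF-kB match. There it formed part of an interferon-stimulated response element pattern, GAAA and GAAA with 2 bases between. Looser forms of this element were not searched, so its absence from H2-K1 and H2-D1 holds for this pattern alone. Taken alone, CCAAT was found in 37.4%, TGACG in 20.8%, AANNGAAA in 23.9%, the NF-kB pattern in 4.16% and the interferon-stimulated response element in 3.44% of all windows. The NF-kB pattern matched both strands of nearly the same letters in H2-K1 and H2-D1, and every match to the interferon-stimulated response element pattern holds AANNGAAA. A match describes letters and not binding.

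Outside these 3 genes, Tap1 and Psmb9 shared 1 match each of TGACG and CCAAT, because they are transcribed in opposite directions from starts 226 bases apart and their windows overlap. Tapbp held CCAAT alone. Psmb8 held the GAS pattern TTCNNNGAA, present in 8.3% of windows, 97 bases before its start. The Psmb10 window matched none of the 6 patterns searched. Of the 12 other class I heavy chains with a window, 1, H2-M3, had the spaced pair.

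**Figure D2:**
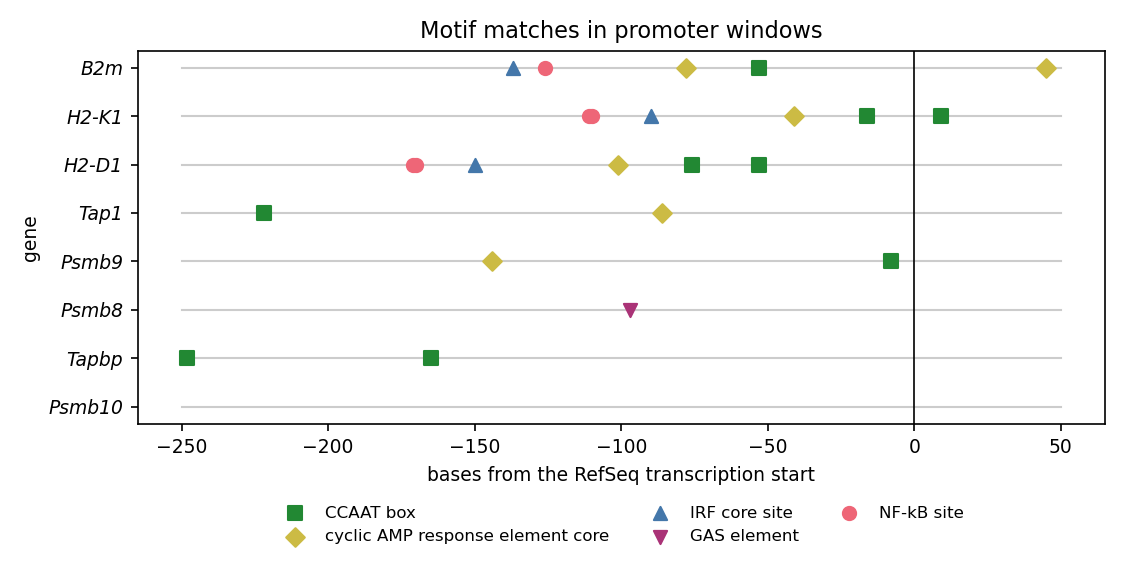
Matches to 5 of the patterns in the promoter windows of 8 genes, placed by the distance in bases of their first base from the RefSeq start (vertical line); grey lines span each window of 300 bases. In B2m, H2-K1 and H2-D1 a TGACG match (diamond) is followed 25 bases later by a CCAAT match (square). For H2-K1, which has a further RefSeq start, the window is that of the printed sequence.

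The transporter and its bridge differed between the ZBP1-KO libraries. Tap1 (ENSMUSG00000037321, chr17:34187553-34197225, plus strand), the first chain of the peptide transporter, measured 18.7 and 23.3 CPM in WT, against 47.3 and 20.9 CPM in ZBP1-KO. Only ZBP1-KO 1 lay outside the WT range, and the log2 fold change of 0.71 ± 0.33 (SE) became −0.007 without that library. Tap2 (ENSMUSG00000024339, chr17:34203527-34216321, plus strand), its partner chain, measured 18.3 and 20.9 CPM in WT, against 26.6 and 15.9 CPM in ZBP1-KO, so that ZBP1-KO held both the highest and the lowest value. Its log2 fold change was 0.13 ± 0.29 (SE), and it was −0.30 without ZBP1-KO 1.

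Tapbp (ENSMUSG00000024308, chr17:33915899-33929292, plus strand), which encodes tapasin, measured 73.4 and 90.5 CPM in WT, against 123 and 75.6 CPM in ZBP1-KO. Again ZBP1-KO 2 fell between the WT libraries. The log2 fold change was 0.28 ± 0.24 (SE), and −0.12 without ZBP1-KO 1. The partner chains did not keep 1 proportion, since the level per length of Tap1 was 0.709 and 0.770 times that of Tap2 in WT and 1.23 and 0.905 times in ZBP1-KO. Exons of Tapbp overlap those of Zbtb22, with 71 to 128 counts, and exons of Tap2 and Psmb8 overlap antisense genes with at most 3 counts. Exons of Tap1 and Psmb9 share 212 bases on opposite strands.

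The immunoproteasome subunits were taken next. Psmb8 (ENSMUSG00000024338, chr17:34197721-34201454, plus strand) measured 22.6 and 28.8 CPM in WT, against 40.8 and 29.3 CPM in ZBP1-KO. ZBP1-KO 2 and WT 2 were almost level, and the log2 fold change was 0.45 ± 0.25 (SE), or 0.19 without ZBP1-KO 1. Psmb9 (ENSMUSG00000096727, chr17:34181987-34187764, minus strand) measured 15.8 and 18.4 CPM in WT, against 29.9 and 24.1 CPM in ZBP1-KO. The gap between the genotypes was about as wide as the spread within ZBP1-KO, with a log2 fold change of 0.66 ± 0.25 (SE) and 0.50 to 0.81 with any 1 library left out. Psmb10 (ENSMUSG00000031897, chr8:105935735-105938444, minus strand) measured 21.1 and 34.1 CPM in WT, against 49.2 and 40.7 CPM in ZBP1-KO. The WT libraries spread widely, and the log2 fold change of 0.71 ± 0.26 (SE) was 0.40 without WT 1.

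The constitutive subunits that they replace were compared within each library, which removes the effect of library size. Psmb5, replaced by Psmb8, measured 51.1 and 56.2 CPM in WT, against 43.4 and 42.4 CPM in ZBP1-KO. Psmb6, replaced by Psmb9, measured 103 and 82.2 CPM against 87.4 and 111 CPM, and Psmb7, replaced by Psmb10, measured 9.49 and 16.3 CPM against 10.03 and 13.03 CPM. The edgeR quasi-likelihood test, fitted over all genes, called 0 of these 3 at an adjusted p under 0.05, as against 0.0134% of all genes, and 0 had an unadjusted p under 0.05, as against 1.91% of all genes higher and 1.97% lower. The exact test of edgeR and DESeq2 gave no call among the 3 either.

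The level per length of Psmb8 was 0.118 and 0.136 times that of Psmb5 in WT and 0.251 and 0.184 times in ZBP1-KO. Psmb10 was 4.46 and 4.21 times Psmb7 in WT and 9.84 and 6.27 times in ZBP1-KO. For both pairs the ZBP1-KO libraries lay above the WT libraries. For the first pair this came partly from Psmb5, which was lower in both ZBP1-KO libraries, while Psmb8 was almost level in ZBP1-KO 2 and WT 2. Psmb7 rested on 118 to 190 counts. Psmb9 was 0.0785 and 0.114 times Psmb6 in WT and 0.175 and 0.111 times in ZBP1-KO, and there the groups overlapped. Averaged over the 3 pairs, the log2 ratio was 0.73 higher in ZBP1-KO, with a range of 0.43 to 1.02 when 1 library was left out, the low end being without ZBP1-KO 1. Annotated pseudogenes exist for all 3 constitutive subunits, and read pairs shared with them would not be counted, so the ratios describe differences between libraries rather than subunit proportions.

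**Figure D3:**
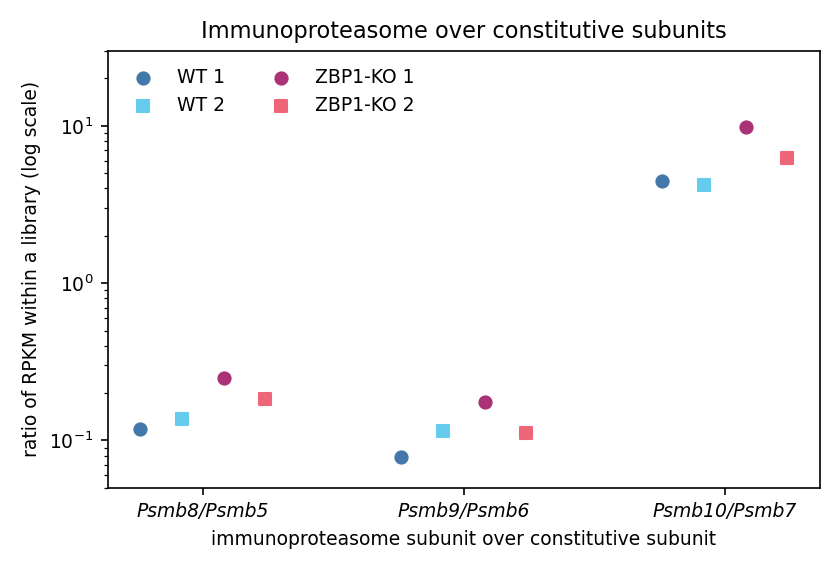
Ratio of the level per length (RPKM, log axis) of each immunoproteasome subunit to the constitutive subunit it replaces, 1 point per library. For Psmb9/Psmb6 the library ZBP1-KO 2 (0.111) lies below WT 2 (0.114), while for the other pairs both ZBP1-KO libraries lie above WT.

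The 10 genes were also compared library by library. ZBP1-KO 1 held the highest value for 10 of 10 genes, and WT 1 the lowest for 9 of 10, the exception being Tap2. Over all genes tested, 26.5% were highest in ZBP1-KO 1 and 21.6% were lowest in WT 1. Within WT, WT 2 exceeded WT 1 for all 10, and within ZBP1-KO, ZBP1-KO 1 exceeded ZBP1-KO 2 for all 10. Both held together for 24.7% of all genes tested. The order within each genotype was thus the same for all 10, and nothing further is read from it. Between genotypes it was not the same. The log2 ratio of ZBP1-KO 2 over WT 2 was 1.10 for Nlrc5, but −0.15 for Tap1, −0.39 for Tap2 and −0.26 for Tapbp. The median log2 ratio of the 9 genes other than Nlrc5 was 1.00 for ZBP1-KO 1 over WT 1, 0.52 for ZBP1-KO 1 over WT 2 and 0.61 for ZBP1-KO 2 over WT 1, but 0.04 for ZBP1-KO 2 over WT 2.

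For Nlrc5 the ZBP1-KO libraries were closer to each other, with a log2 ratio of 0.14 for ZBP1-KO 1 over ZBP1-KO 2 where the median of the 9 others was 0.48. Its log2 ratios over WT in the same order were 1.63, 1.25, 1.49 and 1.10. It had 43.1 and 39.1 counts per 1000 counts of H2-K1 in WT, against 55.3 and 71.7 in ZBP1-KO, so the proportion of activator to target counts was highest in ZBP1-KO 2. The lower mitochondrial share of ZBP1-KO 1 stands beside its high values. When mitochondrially encoded genes were left out of the library sizes, the log2 fold change was 1.36 for Nlrc5 and the median was 0.57 for the 9 others. Leaving them out could change only the scaling and the fit. Whether the mitochondrial share is linked to the values of ZBP1-KO 1 in another way was not tested.

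**Figure D4:**
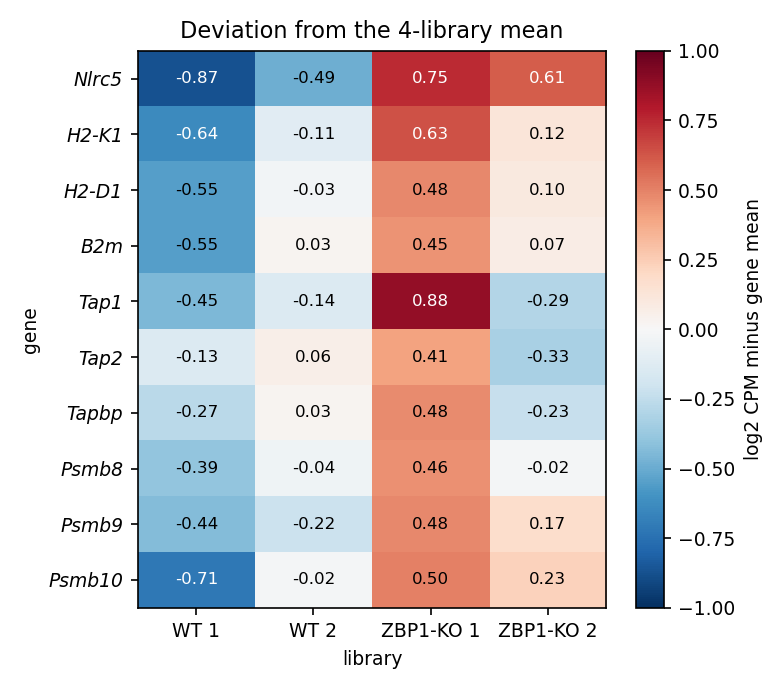
Deviation of log2 CPM from the mean of the 4 libraries for each gene, with the value printed in each cell (red above and blue below the mean). The column of ZBP1-KO 1 is above the mean for all 10 genes, while ZBP1-KO 2 reaches 0.61 for Nlrc5 and −0.33 to 0.23 for the others.

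Compared per length, B2m had the highest level, at 494 ± 138 RPKM in WT and 702 ± 131 RPKM in ZBP1-KO (SD, n = 2 each). H2-D1 and H2-K1 followed, with means over the 4 libraries of 140 and 127 RPKM and ranges that overlapped. Tapbp (25.01 RPKM) and Psmb10 (21.3 RPKM) formed the next pair and also overlapped. Psmb8, Psmb9, Tap2 and Tap1, at 8.99, 6.02, 5.40 and 5.03 RPKM, overlapped each with its neighbour in this order. Nlrc5 was the lowest of the 10 in every library, with 1.33 ± 0.25 RPKM in WT and 3.42 ± 0.24 RPKM in ZBP1-KO. Its range overlapped that of Tap1. In mean level Nlrc5 stood at the 45.9 percentile of the genes tested, whereas B2m stood at the 99.8 percentile.

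**Figure D5:**
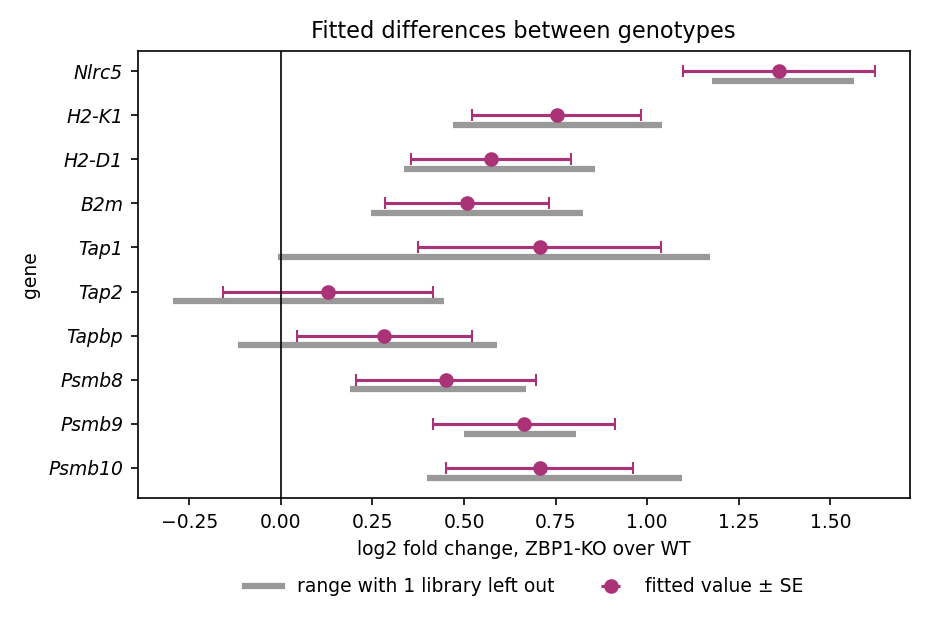
Fitted log2 fold change of ZBP1-KO over WT for each gene (points, with bars for ± SE), and below each the range of the value when 1 library is left out (grey). Nlrc5 stays between 1.18 and 1.56, and the ranges of Tap1, Tap2 and Tapbp extend below 0.

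Genes whose profile was most like that of Nlrc5 were sought among 10130 protein-coding genes with a mean of at least 5 CPM, by the Euclidean distance between deviations of log2 CPM over the 4 libraries. The nearest were Arhgap33 (distance 0.375), Adal (0.384), Syt17 (0.403), Acap1 (0.405) and Zfp229 (0.432), none of them in the lists described here. The nearest class I genes were Psmb10 (0.664) and H2-K1 (0.667), at ranks 59 and 60, and Tap2 was the farthest of the 9 at rank 3506. When genes with a mean down to 1 CPM were included, 0 of these 5 remained among the nearest 5.

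Other genes of the pathway were counted by role. Beside these counts, an unadjusted p under 0.05 was reached by 1.91% of all genes tested as higher and 1.97% as lower, and 49.4% had a log2 fold change above 0. In each list counted here, edgeR's exact test and DESeq2 also called 0. Of 8 tested genes for peptide loading and trimming in the endoplasmic reticulum, 0 were called by edgeR, while an unadjusted p under 0.05 was reached by 1 higher and 0 lower. That gene was Tapbpl, which encodes a tapasin-related peptide editor, with 3.78 and 5.05 CPM in WT, against 12.5 and 6.57 CPM in ZBP1-KO and a log2 fold change of 1.12 ± 0.46 (SE, edgeR adjusted p = 0.999). It was 0.57 without ZBP1-KO 1. Calr, the calreticulin chaperone and the most abundant of the 8, had a log2 fold change of 0.25 ± 0.18 (SE), and 0.15 without ZBP1-KO 1. Of the 3 genes of the proteasome activator PA28, 0 were called and 0 had an unadjusted p under 0.05, with log2 fold changes of 0.12 for Psme1, 0.10 for Psme2 and −0.11 for Psme3.

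Of 15 other class I heavy chains listed, 11 were tested. By edgeR 0 were called, while an unadjusted p under 0.05 was reached by 3 higher (background 1.91%) and 0 lower (background 1.97%). The median log2 fold change of the 11 was 0.32. H2-Q7, a Qa-2 antigen gene, measured 25.8 and 30.9 CPM in WT, against 60.7 and 49.0 CPM in ZBP1-KO. Its log2 fold change was 0.95 ± 0.22 (SE, edgeR adjusted p = 0.938), and it stayed between 0.79 and 1.10 with 1 library left out. H2-Q6, the most abundant of the list, measured 66.3 and 93.7 CPM against 126 and 145 CPM, with a log2 fold change of 0.76 ± 0.21 (SE, edgeR adjusted p = 0.999). H2-Q6 and H2-Q7 are near-identical copies, so their counts are uncertain. H2-M2 had 2 and 4 counts in WT and 37 and 32 counts in ZBP1-KO. H2-T23, which encodes Qa-1, the ligand of an inhibitory receptor of NK cells, had a log2 fold change of 0.26 ± 0.21 (SE), and −0.03 without ZBP1-KO 1. H2-Q1 and H2-M9 had 0 counts in every library.

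Of the 8 tested factors that NLRC5 meets at class I promoters, 0 were called by edgeR, while an unadjusted p under 0.05 was reached by 0 higher and 1 lower. That gene was Atf1, a CREB family factor, with 12.9 and 16.9 CPM in WT, against 6.05 and 9.26 CPM in ZBP1-KO and a log2 fold change of −0.97 ± 0.35 (SE, edgeR adjusted p = 0.999). Rfx5, a subunit of the RFX complex, measured 6.68 and 3.59 CPM against 2.80 and 1.51 CPM, with a log2 fold change of −1.24 ± 0.66 (SE, edgeR adjusted p = 0.999), and −0.73 without WT 1. Both ZBP1-KO libraries were below both WT libraries for these genes, as for 16.3% of all genes tested. Nfyc, an NF-Y subunit and the most abundant of the list, had a log2 fold change of 0.09 ± 0.18 (SE), and 0.02 without WT 2.

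Upstream of Nlrc5, interferon and NF-kB factors were examined. Of 14 tested, 0 were called by edgeR, while an unadjusted p under 0.05 was reached by 2 higher and 0 lower, and the median log2 fold change of the 14 was 0.06. Irf1, an interferon-induced transcription factor, measured 19.7 and 30.02 CPM in WT, against 51.9 and 35.7 CPM in ZBP1-KO, with a log2 fold change of 0.82 ± 0.27 (SE, edgeR adjusted p = 0.999), and 0.52 without ZBP1-KO 1. Nfkb1, an NF-kB subunit, measured 25.4 and 31.9 CPM against 39.9 and 44.1 CPM, with a log2 fold change of 0.55 ± 0.22 (SE, edgeR adjusted p = 0.999). Stat2, the most abundant, had a log2 fold change of −0.24 ± 0.21 (SE), and −0.02 without WT 2. Ifng had 0 counts in every library, which allows up to 0.221 to 0.323 CPM and covers counting error only.

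Among 14 interferon-gamma-induced genes outside presentation, 0 were called by edgeR, while an unadjusted p under 0.05 was reached by 7 higher (background 1.91%) and 0 lower (background 1.97%). The median log2 fold change was 0.87, and all 14 were above 0, as were 49.4% of all genes tested. Only 3 of the 14 had both ZBP1-KO libraries above both WT libraries, where the background was 16.0%. Gbp5, a guanylate-binding GTPase, measured 4.34 and 9.84 CPM in WT, against 19.1 and 16.8 CPM in ZBP1-KO, with a log2 fold change of 1.34 ± 0.39 (SE, edgeR adjusted p = 0.999), which ran from 0.87 without WT 1 to 2.05 without WT 2. Gbp2 measured 15.0 and 31.2 CPM against 73.7 and 29.2 CPM, and its log2 fold change of 1.16 was 0.34 without ZBP1-KO 1. Igtp and Irgm1, immunity-related GTPases, went from 1.18 to 0.36 and from 0.80 to 0.07 without that library. Gbp3 and Gbp7 had log2 fold changes of 0.56 and 0.65, which became 0.28 without ZBP1-KO 1 for Gbp3 and 0.37 without WT 2 for Gbp7. Summed over the 14 genes, the level was 193 and 372 CPM in WT, against 707 and 314 CPM in ZBP1-KO. ZBP1-KO 1 was again the highest and WT 1 the lowest, and the groups overlapped.

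Markers of leukocytes and other cells were set beside these values, since class I genes are abundant in leukocytes. The summed level of 10 T cell markers was 10.8 to 15.4 CPM in WT, against 21.7 to 29.3 CPM in ZBP1-KO. Of the 8 tested, all had a log2 fold change above 0 (background 49.4%) and 1 was higher at an unadjusted p under 0.05 (background 1.91%). Both ZBP1-KO libraries lay above both WT libraries for 3 of the 8 (background 16.0%), and SEs reached 1.38. The 5 markers of all leukocytes summed to 73.9 to 94.4 CPM in WT, against 92.2 to 127 CPM in ZBP1-KO, and the 8 macrophage markers to 191 to 279 CPM and 269 to 275 CPM, so both overlapped. The 8 markers of NK and cytotoxic cells summed to 2.01 to 3.34 CPM in WT, against 2.95 to 3.12 CPM in ZBP1-KO, with Ncr1 and Klrb1c at 0 counts in every library. The 6 dendritic cell markers summed to 7.64 to 8.64 CPM in WT, against 9.59 to 15.5 CPM in ZBP1-KO, and the 6 B cell markers to 8.20 to 8.30 CPM against 4.13 to 5.82 CPM. The 5 plasma cell markers summed to 195 CPM in WT 1 and 105 CPM in WT 2, against 121 to 131 CPM in ZBP1-KO. The 5 neutrophil markers summed to 23.8 CPM in WT 1 and 4.70 CPM in WT 2, with both ZBP1-KO libraries in between. For plasma cells and neutrophils the groups thus overlapped, with WT 1 the highest library and WT 2 the lowest. Among kidney cells, the 5 collecting duct markers summed to 1092 to 1240 CPM in WT, against 657 to 885 CPM in ZBP1-KO, with 3 of 5 lower at an unadjusted p under 0.05 (background 1.97%), and the 5 podocyte markers to 102 to 104 CPM against 129 to 150.2 CPM. The 6 proximal tubule markers summed to 1395 and 1555 CPM in WT, against 987 CPM in ZBP1-KO 1 and 1522 CPM in ZBP1-KO 2. The 4 markers of thick ascending limb and distal tubule summed to 1521 and 1597 CPM in WT, against 1891 CPM in ZBP1-KO 1 and 1565 CPM in ZBP1-KO 2. In both lists ZBP1-KO 1 stood apart from the other libraries. The 6 endothelium markers summed to 221 to 266 CPM in WT, against 241 to 270 CPM in ZBP1-KO, so the groups overlapped. The 7 adipocyte markers summed to 80.3 to 110 CPM in WT, against 190 to 230 CPM in ZBP1-KO, with Lep at 0 counts, and all 6 tested were higher at an unadjusted p under 0.05 (background 1.91%), of which Cfd was called. The part of these cells in the class I values was not tested.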

How the data were processed

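Polyadenylated kidney RNA was sequenced by the authors as read pairs (TruSeq, HiSeq). They trimmed reads with Trimmomatic, aligned them to mm10 with HISAT2 and counted uniquely mapped pairs per gene with featureCounts. Versions, the annotation release and the strand setting are not given in the sources used here. The deposited values are counts per Ensembl gene, not normalized. Of 54532 identifiers, 54495 matched GENCODE M21, which gave symbols, positions and exon lengths.

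Genotypes were compared with the quasi-likelihood F test of edgeR 4.0.16 (two-sided, in R 4.3.3) after TMM scaling and filterByExpr, which kept genes by a minimum count of 10 and a minimum total of 15, with genotype as the only term, all 4 libraries and Benjamini-Hochberg adjustment over 14908 genes. Each SE is the size of the log2 fold change over root F. Log2 CPM used a prior count of 2. If the libraries of a genotype share an animal, p-values measure technical spread only.

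Genes and lists were chosen with earlier results of these data known. Genes named from a list were those at an unadjusted p under 0.05 (at most 6), its most abundant gene, all constitutive subunits and PA28 genes, and Ciita, Irf1, Rfx5 and H2-T23, and 1 further gene under this rule is not reported here. Other genes named, such as H2-Q1 and H2-M9, were picked with their values in view. Alternatives were other scalings, filters and tests (DESeq2 1.42.0), a replicate block, no mitochondrial genes, other gene lengths and each library left out. Promoter windows are from RefSeq (GRCm38.p6).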

Additional observations from a re-analysis of the deposited data

How the results depend on the processing

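The log2 fold change of Nlrc5 lay between 1.35 and 1.37 and the median of the 9 other class I genes between 0.56 and 0.58 under every scaling, filter and test tried with all 4 libraries. With 1 library left out, Nlrc5 ran from 1.18 to 1.56 and the median from 0.30 (without ZBP1-KO 1) to 0.82 (without WT 2), where a lone library is assumed to vary like the other group. The immunoproteasome difference of 0.73 ran from 0.43 to 1.02 in the same way and from 0.56 to 0.86 over single pairs.

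Over all genes, edgeR called 2, 4 without mitochondrially encoded genes, 11 with the replicate block, 14 with its exact test and 41 with no filter on low counts, where 22065 genes were tested, and DESeq2 called 9. With 1 library left out the number ran from 0 (without WT 1) to 15 (without ZBP1-KO 2). The cause was not tested. With no filter, 4 of the 14 interferon-gamma-induced genes (Gbp2, Gbp4, Igtp and Iigp1) and H2-Q7 were among the calls.

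For the pairing, deviations from the genotype means correlated at 0.00399 between libraries of the same number, over 14908 genes. This shows no shared shift across genes, but it cannot settle whether the libraries were paired. The replicate block (Nlrc5 1.37, median 0.58) gave 11 calls over all genes.

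With 1 library left out, log2 fold changes of uncalled genes changed sign and ran from −0.41 to 0.00611 for Fcgrt, −0.10 to 0.33 for Psme2, −0.0815 to 0.27 for Psmb6, −0.50 to 0.28 for Psmb7, −0.25 to 0.0564 for Psme3, −0.27 to 0.11 for Ciita, −0.66 to 0.0784 for Nlrp6 and −0.0256 to 0.50 for H2-T23. Levels per length were higher for all 10 genes without mitochondrially encoded genes, to 1401 RPKM for B2m and 5.56 RPKM for Nlrc5, and the longest transcript in place of all exons put H2-K1 (199 RPKM) above H2-D1 (172 RPKM).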

Other observations

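Gene groups around the class I pathway were also counted, where an unadjusted p under 0.05 was reached by 1.91% of all genes tested as higher and 1.97% as lower. Of 11 tested NLR family genes other than Nlrc5, 0 were called by edgeR and 0 had an unadjusted p under 0.05, with log2 fold changes from −0.72 to 0.44. Ciita, the transactivator of MHC class II and the closest functional relative of Nlrc5, measured 5.79 and 7.53 CPM in WT, against 6.05 and 6.46 CPM in ZBP1-KO, and its log2 fold change was −0.09 ± 0.43 (SE, edgeR adjusted p = 0.999). Nlrp6, the most abundant of the group, measured 211 and 197 CPM in WT, against 129 and 216 CPM in ZBP1-KO.

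Of 5 tested class I-like molecules encoded outside the H2 region, 0 were called by edgeR, while an unadjusted p under 0.05 was reached by 1 higher and 0 lower. That gene was Procr, the endothelial protein C receptor, with 2.57 and 2.57 CPM in WT, against 7.15 and 6.57 CPM in ZBP1-KO and a log2 fold change of 1.41 ± 0.53 (SE, edgeR adjusted p = 0.999). Fcgrt, the neonatal Fc receptor and the most abundant of these, had a log2 fold change of −0.20 ± 0.22 (SE). Of 6 tested genes listed as receptors that read class I, 0 were called by edgeR and 0 had an unadjusted p under 0.05. All 6 had log2 fold changes above 0 (background 49.4%), from 0.40 to 1.30, but with SEs from 0.56 to 1.47. Cd8a and Cd8b1 among them were also counted as T cell markers. Cd8a, a chain of the CD8 coreceptor, had 11 and 33 counts in WT and 63 and 36 counts in ZBP1-KO, while Pirb, the most abundant, had a log2 fold change of 0.52 ± 0.56 (SE), which ran from 0.06 without ZBP1-KO 2 to 0.87 without ZBP1-KO 1.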
